A study of Homo sapiens with 7 samples.

Results

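GPX4 and 9 further genes of ferroptosis defence and iron handling were followed in HCT116 cells given miR-148a-3p or a control miRNA. TFRC, which imports iron, is among them and is not itself a defence. The 10 genes were picked by symbol from the gene read counts of the mRNA libraries: GPX4, GPX1, SLC7A11, SLC3A2, GCLC, GCLM, TXNRD1, FTH1, FTL and TFRC. They are 10 of 15659 gene symbols with a read in at least 1 library, and all 10 were among the 8921 genes with enough reads to be tested. GPX4 was taken up because its level differed between the groups in an earlier look at the same libraries, and the others were set around it, so the differences of the 10 genes between the groups are given as a description.

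HCT116 is a human colorectal carcinoma line. All 6 mRNA libraries came from HCT116 DROSHA-KO cells, which lack the nuclease that starts microRNA maturation, so the missing gene is shared by both groups and the line is not myeloid. Cells transfected with miR-148a-3p (3 libraries) were compared with cells transfected with control miRNA (3 libraries), each harvested 48 h after transfection. The labels name no clone number and do not say that the replicates were separate cultures, so the p-values below measure the spread between libraries, which may be technical. The libraries prime on the poly(A) tail and count transcript ends. Levels are therefore given as CPM (counts scaled to a common library size by the TMM method) with no division by transcript length. The miR-148a-3p libraries held 630142 to 1564125 counts and the control libraries 876131 to 1069154. Along the first principal component, miR-148a-3p replicate 3 (34.2) and control replicate 1 (-31.4) stood at opposite ends, with the other libraries between -8.29 and 13.1. Values without miR-148a-3p replicate 3 or control replicate 1 are therefore given beside some of the fold changes, though not beside all that moved. DROSHA had 20, 15 and 13 reads with miR-148a-3p and 31, 16 and 16 reads with the control. Which exons were removed is not given in the sources used here, so these reads at the transcript end are no check of the deletion. Among epithelial markers, 8 of 13 were counted, with summed levels of 1626 to 1806 CPM with miR-148a-3p and 1719 to 1993 CPM with the control, mostly KRT18. The sums came mostly from keratins. KRT20, CDX1, CDH17, GPA33 and MUC13 had 0 reads in every library, VIL1 and LGALS4 at most 2, and CDH1 had 1 to 13. EPCAM was at 16.4 to 34.6 CPM over the 6 libraries. Of the blood cell markers 5 of 15 were counted, with sums of 2 to 25 reads with miR-148a-3p and 4 to 13 with the control. Most of these reads were of CD33 and HBA2. CD33 had 11, 1 and 2 reads with miR-148a-3p and 8, 0 and 3 with the control. HBA2 had 14, 2 and 0 reads with miR-148a-3p and 5, 1 and 1 with the control. PTPRC, CD34, SPI1 and MPO were at 0 in every library. Fibroblast and endothelial markers, 6 of 13 counted, summed to 55.6 to 100.4 CPM with miR-148a-3p and 59.5 to 91.5 CPM with the control. Most of this was COL1A1, at 48.8, 31.9 and 62.6 CPM with miR-148a-3p and at 79.9, 37.3 and 56.9 CPM with the control.

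Ferroptosis is a form of cell death driven by iron-dependent peroxidation of membrane lipids. Cells oppose it by importing cystine, building glutathione from it, and using glutathione through the selenoenzyme GPX4 to reduce lipid peroxides inside membranes. Iron handling sets the other side of the balance: the transferrin receptor brings iron in and ferritin stores it in a less reactive form. Many of these genes are induced by the transcription factor NFE2L2 (NRF2), which binds antioxidant response elements, and ferritin and the transferrin receptor are also controlled after transcription through iron responsive elements in their messenger RNAs.

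The sequence that was added to the cells and its seed relatives are shown because they define the treatment. Capitals mark the seed (bases 2 to 8), which is CAGUGCA in all 3 microRNAs, with sequences from RefSeq (GRCh38.p14).
miR-148a-3p: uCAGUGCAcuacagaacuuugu
miR-148b-3p: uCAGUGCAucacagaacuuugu
miR-152-3p: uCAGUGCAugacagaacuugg
Target sites for this seed were not searched in the 10 genes, since transcript sequences were not analysed here.

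RefSeq promoter windows (250 bases before to 50 after a transcript start) matched 8 of the 10 genes by symbol, in 13 windows. FTH1 and SLC7A11 had none. The antioxidant response element core TGACNNNGC was searched on both strands and was found in windows of SLC3A2, GCLM and TXNRD1, that is in 4 of the 13 windows, against 13.3% of all 35116 windows. The matches are shown because these members share the core letters. The core is in capitals with 10 bases on each side, read on the strand that spells the core.
SLC3A2, chr11:62881652-62881680, gene strand, core from base -37: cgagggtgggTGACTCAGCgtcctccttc
GCLM, chr1:93909446-93909474, opposite strand, core from base -34: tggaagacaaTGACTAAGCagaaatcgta
TXNRD1, chr12:104215670-104215698, gene strand, core from base -99: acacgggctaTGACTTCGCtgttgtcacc
TXNRD1, chr12:104215761-104215789, opposite strand, core from base -8: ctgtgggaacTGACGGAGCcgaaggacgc
TXNRD1, chr12:104286920-104286948, opposite strand, core from base -102: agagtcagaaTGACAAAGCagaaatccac
Positions count back from the transcript start and name the core's most upstream base on the gene strand. The SLC3A2 core also spells the AP-1 motif TGACTCA. The windows of GPX4, GPX1, GCLC, FTL and TFRC did not hold these letters, which says nothing about NFE2L2 at those genes. The light chain of ferritin has a known iron responsive element at the start of its messenger RNA, and its bulged C and loop (CNNNNNCAGTGN, searched on the gene strand in the 50 bases after each start) are in capitals here.
FTL, chr19:48965332-48965358, gene strand: tgtctcttgCTTCAACAGTGTttggac
The same letters occurred in 1.67% of all windows, among them a window of GPX1 and a window of SLC3A2. A match of letters is not a working element.

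GPX4 had the highest fold change of the 10 genes and was the one whose miR-148a-3p libraries all lay above the control libraries. It encodes a selenoprotein that reduces phospholipid hydroperoxides in membranes (chromosome 19, 1103994 to 1106779, protein-coding, no other RefSeq gene overlapping). GPX4 was at 275, 308 and 392 CPM in the miR-148a-3p libraries and at 217, 176 and 157 CPM in the control libraries, from 417, 260 and 238 reads and from 225, 151 and 138 reads. Every miR-148a-3p library was above every control library, and the smallest gap lay between miR-148a-3p replicate 1 and control replicate 1. The means were 325 ± 60.3 CPM with miR-148a-3p and 183 ± 30.5 CPM with the control (SD, n = 3 each), a ratio of 1.77. The fitted log2 fold change (miR-148a-3p over control) was 0.81 (SE 0.20), higher than that of 97.8% of all genes tested. In this bulk RNA a change in the share of cells that express GPX4 and a change in its level per cell cannot be told apart. Among the miR-148a-3p libraries, GPX4 was highest in the shallowest library and lowest in the deepest, while among the control libraries it was highest in the deepest. The part of depth in the difference was not tested. Without control replicate 1 the log2 fold change was 0.95, and without miR-148a-3p replicate 3 it was 0.66.

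GPX1, the cytosolic glutathione peroxidase that reduces hydrogen peroxide and soluble hydroperoxides, is a selenoprotein as well (chromosome 3, 49357176 to 49358353). GPX1 was at 90.3, 76.9 and 65.9 CPM with miR-148a-3p and at 116.5, 49.0 and 70.5 CPM with the control. The control libraries spanned the whole range of the miR-148a-3p libraries, so the groups overlapped. Its fitted log2 fold change was -0.01 (SE 0.27), 0.40 without control replicate 1, which had the highest GPX1 level of the 6 libraries, and 0.08 without miR-148a-3p replicate 3. Within a library, GPX4 reads outnumbered GPX1 reads by 3.04, 4 and 5.95 times with miR-148a-3p and by 1.86, 3.60 and 2.23 times with the control, so this ratio overlapped between the groups.

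**Figure D1:**
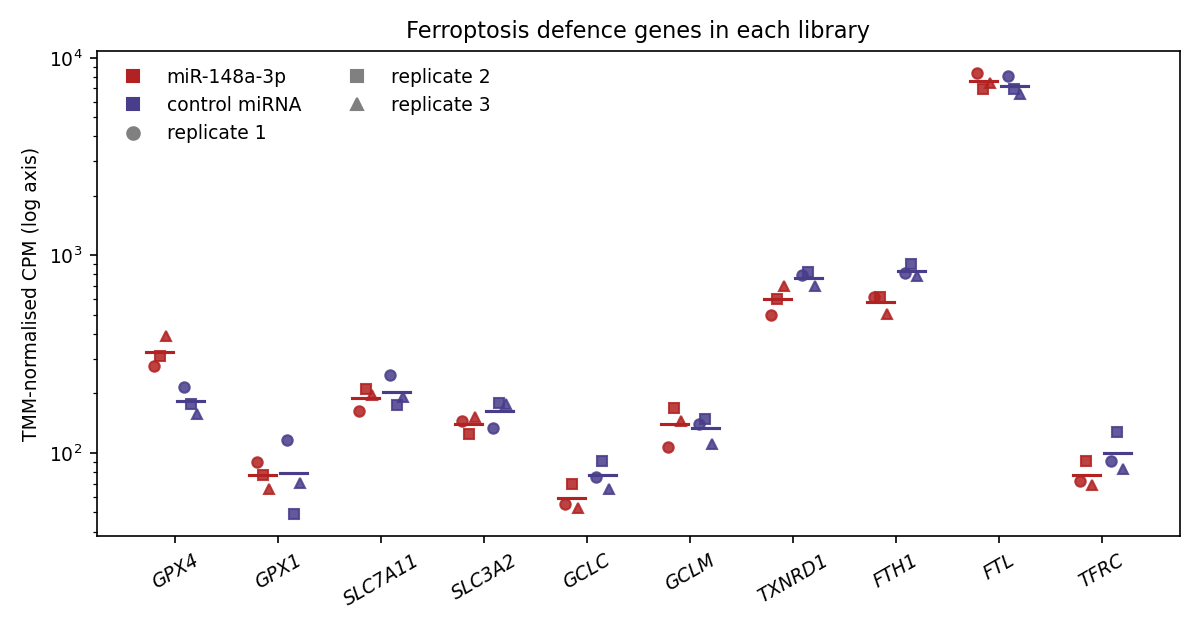
TMM-normalised CPM (log axis) of the 10 genes in each library, with miR-148a-3p in red to the left of control miRNA in blue; circles, squares and triangles are replicates 1, 2 and 3 and bars are group means. GPX4 lies higher in all 3 miR-148a-3p libraries, FTH1 and TXNRD1 lie lower, and the groups overlap for the other 7 genes.

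The cystine importer system xc- is a pair of proteins, the transport subunit SLC7A11 and the heavy chain SLC3A2, which also anchors other amino acid transporters. SLC7A11 (chromosome 4, 138164097 to 138242349) was at 162, 212 and 196 CPM with miR-148a-3p and at 247, 175 and 191 CPM with the control. SLC3A2 (chromosome 11, 62856109 to 62888860) was at 146, 124 and 151 CPM with miR-148a-3p and at 133, 179 and 176 CPM with the control. Both genes overlapped between the groups. Control replicate 1 was the highest library for SLC7A11 and the lowest of its group for SLC3A2, where the other control libraries were above all miR-148a-3p libraries. The log2 fold changes were -0.11 (SE 0.20) for SLC7A11 and -0.21 (SE 0.20) for SLC3A2. Without control replicate 1, SLC7A11 was at 0.04 and SLC3A2 at -0.34. The ratio of SLC7A11 to SLC3A2 reads was 1.37 ± 0.303 with miR-148a-3p and 1.31 ± 0.478 with the control (SD, n = 3 each).

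Glutathione synthesis starts with glutamate-cysteine ligase, made of the catalytic subunit GCLC and the modifier subunit GCLM, which raises the affinity of the enzyme for its substrate. GCLC (chromosome 6, 53497341 to 53545101) was at 55.4, 69.8 and 52.7 CPM with miR-148a-3p and at 75.1, 91.0 and 66.0 CPM with the control, from 32 to 84 reads and from 58 to 78 reads. GCLM (chromosome 1, 93885199 to 93909430) was at 107, 169 and 145 CPM with miR-148a-3p and at 141, 148 and 110 CPM with the control. The groups overlapped for both subunits, for GCLC only through miR-148a-3p replicate 2 and control replicate 3. The log2 fold change was -0.38 (SE 0.25) for GCLC and 0.06 (SE 0.22) for GCLM, and that of GCLM lay between -0.10 and 0.24 with 1 library left out. The ratio of GCLM to GCLC reads, which does not depend on the scaling of the libraries, was 1.93, 2.42 and 2.75 with miR-148a-3p and 1.87, 1.63 and 1.67 with the control. These ratios did not overlap, although miR-148a-3p replicate 1 and control replicate 1 lay close together. This ratio and the others below were chosen after the values were seen and carry no test.

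TXNRD1 is the cytosolic thioredoxin reductase, a selenoprotein of the parallel thiol system that can supply reducing power when glutathione is short (chromosome 12, 104215779 to 104350307). TXNRD1 was at 500.3, 605 and 698.0 CPM with miR-148a-3p and at 795, 823 and 698.4 CPM with the control. The miR-148a-3p libraries were all lower, but miR-148a-3p replicate 3 and control replicate 3 were almost equal. The log2 fold change was -0.37 (SE 0.17), -0.35 without control replicate 1 and -0.48 without miR-148a-3p replicate 3. Of the selenoproteins among the members, GPX4 thus lay higher without overlap, TXNRD1 lower without overlap, and GPX1 overlapped between the groups. GPX4 reads were 0.549, 0.509 and 0.561 of the TXNRD1 reads with miR-148a-3p and 0.273, 0.214 and 0.225 of them with the control. With GPX4 higher and TXNRD1 lower without overlap, these ratios could not overlap, so they add nothing to the levels of each gene. RefSeq places 3 genes within the TXNRD1 span, and the one with more than 1 read, EID3, had 2, 3 and 7 reads with miR-148a-3p and 4, 0 and 3 with the control.

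Ferritin is built from a heavy and a light chain, and FTH1 was the member with the lowest fold change while FTL overlapped between the groups. FTH1 encodes the heavy chain, which oxidises iron for storage (chromosome 11, 61964285 to 61967634). FTH1 was at 617, 616 and 504 CPM with miR-148a-3p and at 815, 907 and 788 CPM with the control. All 3 miR-148a-3p libraries were below all 3 control libraries. The means were 579 ± 65.2 CPM with miR-148a-3p and 837 ± 62.0 CPM with the control (SD, n = 3 each), a log2 fold change of -0.53 (SE 0.17), which stayed between -0.58 and -0.44 with any 1 library left out. FTL, the light chain, which helps the iron core form (chromosome 19, 48965309 to 48966879), was at 8390, 6986 and 7455 CPM with miR-148a-3p and at 8059, 6976 and 6520 CPM with the control. The groups overlapped, and replicate 1 was the highest FTL library in each. Its log2 fold change was 0.08 (SE 0.15), and 0.17 without control replicate 1. FTL alone took 0.701% to 0.814% of all counts with miR-148a-3p and 0.643% to 0.783% with the control.

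Within a library, FTL reads outnumbered FTH1 reads by 13.6, 11.3 and 14.8 times with miR-148a-3p and by 9.89, 7.69 and 8.27 times with the control. The mean ratio was 13.2 ± 1.76 with miR-148a-3p and 8.62 ± 1.14 with the control (SD, n = 3 each), with no overlap. This ratio restates, at least in part, the FTH1 difference given above. Ferritin genes have many processed pseudogenes, and how reads with several matches were counted is not given in the sources used here. Under symbols of FTH1 or FTL pseudogenes the files hold few reads: FTH1P16 had 5, 2 and 3 with miR-148a-3p and 0, 2 and 1 with the control, and 3 other symbols had 1 to 3 reads in all. With these reads added the log2 fold change of FTH1 was -0.52. BEST1, which overlaps FTH1, had 13, 4 and 12 reads with miR-148a-3p and 4, 9 and 1 with the control.

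TFRC, the transferrin receptor that imports iron (chromosome 3, 196049284 to 196082090), was at 72.5, 91.1 and 69.1 CPM with miR-148a-3p and at 90.5, 127 and 83.0 CPM with the control. The groups overlapped, and replicate 2 was the highest library in each. The log2 fold change was -0.37 (SE 0.24), and -0.16 without control replicate 2. When iron regulatory proteins are active they stabilise TFRC messenger RNA and hold back ferritin translation, and read counts do not show translation. The ratio of FTH1 to TFRC reads is therefore a description and no measure of these proteins' activity. FTH1 reads outnumbered TFRC reads by 7.52 ± 0.895 times with miR-148a-3p and by 8.54 ± 1.25 times with the control (SD, n = 3 each), and the groups overlapped.

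**Figure D2:**
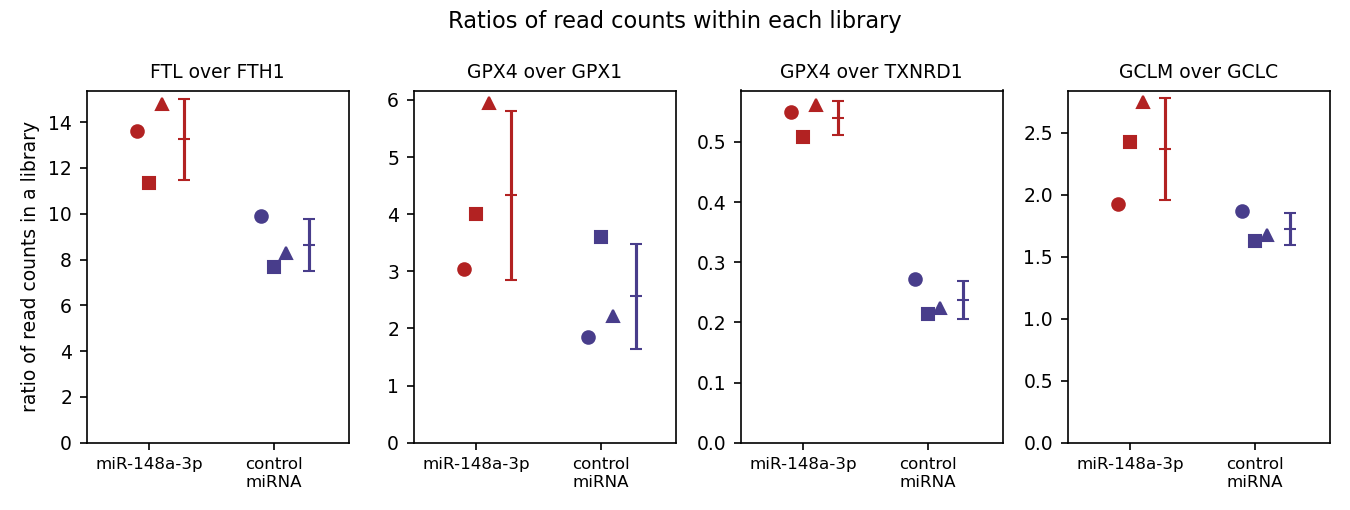
Ratios of read counts of 2 genes in the same library, with miR-148a-3p left of control miRNA; circles, squares and triangles are replicates 1, 2 and 3, and the bar beside them is the mean ± SD (n = 3). FTL over FTH1 (13.2 against 8.62), GPX4 over TXNRD1 (0.540 against 0.237) and GCLM over GCLC (2.37 against 1.72) do not overlap, and GPX4 over GPX1 does. For GPX4 over TXNRD1 this was fixed by the levels of each gene, which do not overlap in opposite directions. FTL over FTH1 restates, at least in part, the lower FTH1 level.

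Across the members, 3 of 10 fitted values were higher with miR-148a-3p (GPX4, FTL and GCLM) and 7 lower, where 49.5% of all tested genes had a higher one. Their median log2 fold change was -0.16, beside -0.0039 for all genes tested. Since TFRC imports iron, a lower value does not mean less defence for every member. The groups did not overlap for 1 higher gene, GPX4, and for 2 lower ones, FTH1 and TXNRD1, against 6.22% of all tested genes that were higher without overlap and 6.59% that were lower without overlap. No member passed an adjusted p of 0.05 (edgeR quasi-likelihood test, Benjamini-Hochberg over all genes tested), a threshold that 0.0112% of all tested genes passed, and DESeq2 and limma-voom also called 0. At an unadjusted p below 0.05, the 3 genes without overlap were counted with edgeR, against 6.79% of all genes. Since the members were chosen with this comparison known, these shares describe them and test nothing. GPX4 was the 1 member called without control replicate 1, where 26 of 9309 genes were called. It was also the 1 called with no filter on low counts, where 18 of 15659 genes were called. As GPX4 was chosen for this difference, these calls test nothing either.

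**Figure D3:**
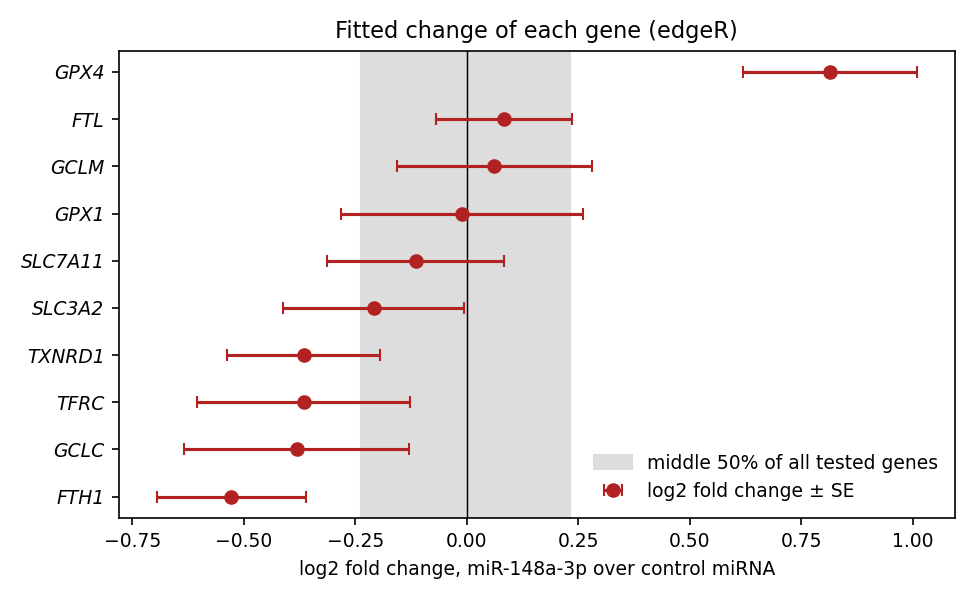
Log2 fold change (miR-148a-3p over control miRNA, edgeR) of each of the 10 genes, with bars of 1 SE; the grey band is the interquartile range of all genes tested (-0.24 to 0.23). GPX4 at 0.81 lies to the right of the band and FTH1 at -0.53 is the leftmost of the genes.

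In order of level, FTL stood far above the other members in both groups and ranked 3 among all tested genes with miR-148a-3p and 4 with the control. With miR-148a-3p it was followed by TXNRD1 and FTH1, whose ranges overlapped, then by GPX4, SLC7A11, the overlapping pair SLC3A2 and GCLM, and last GPX1, TFRC and GCLC, each overlapping its neighbour. In the control group FTH1 and TXNRD1 overlapped in the places after FTL, and from SLC7A11 downwards through GPX4, SLC3A2, GCLM, TFRC, GPX1 and GCLC every gene overlapped the next. GPX4 ranked 502 among all tested genes with miR-148a-3p and 1068 with the control. With miR-148a-3p the range of GPX4 lay wholly above that of SLC7A11, and with the control the ranges overlapped. These ranks compare counts of transcript ends and hold only as far as each gene's end was captured equally well.

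The genes with a mean of at least 50 CPM whose log2 level ran most like that of GPX4 over the 6 libraries were ACTB, ADSL, FKBP4, CLPP and BLOC1S2, with Pearson r of 0.989, 0.978, 0.971, 0.971 and 0.969 among 4121 candidates. With 6 libraries and so many candidates such values are a description, and the genes share the libraries and their scaling. The r spans both groups, so it takes in the group difference for which GPX4 was chosen. Genes that differ between the groups as GPX4 does therefore score high. ACTB was at 901, 954 and 1026 CPM with miR-148a-3p and at 877, 799 and 789 CPM with the control, so its range was much narrower than that of GPX4. BLOC1S2, a subunit of a complex of lysosome-related organelles, was at 129.8, 148 and 147 CPM with miR-148a-3p and at 101, 87.5 and 79.6 CPM with the control. Among the members, FTH1, which was lower without overlap, ran most opposite to GPX4 (r = -0.925), and SLC7A11 had an r of 0.06. The r of FTH1 thus restates, at least in part, the group differences given above.

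To place the members among their pathways, 8 lists holding none of them were written from background knowledge. Of 232 listed genes 208 were counted and 166 tested, of which 83 were higher and 83 lower with miR-148a-3p, with a median log2 fold change of -0.0014. With edgeR 0 of the 166 passed the threshold, as with DESeq2 and limma-voom, against 0.0112% of all genes tested. At an unadjusted p below 0.05, 3 were higher and 6 lower, where 6.79% of all tested genes had such a p. The groups did not overlap for 11 higher and 10 lower ones, where 12.8% of all tested genes did not.

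Around glutathione and thioredoxin, 16 of 29 tested genes were higher and 13 lower (median 0.05), and 0 passed. PRDX2, a cytosolic peroxiredoxin, was at 50.8, 98.2 and 75.7 CPM with miR-148a-3p and at 37.6, 47.8 and 31.9 CPM with the control, without overlap (log2 fold change 0.92, SE 0.29, edgeR adjusted p = 0.428). SOD1, the cytosolic superoxide dismutase, was at 962, 904 and 1024 CPM with miR-148a-3p and at 706, 842 and 776 CPM with the control (0.31, SE 0.16, edgeR adjusted p = 0.726), also without overlap. The peroxisomal enzyme CAT had a log2 fold change of -0.56 (SE 0.29), and of -0.97 to -0.39 with 1 library left out. GPX8, a peroxidase of the endoplasmic reticulum named for its family after its values were seen, was at 0.17 (SE 0.24), whereas GPX2 and GPX3 had 0 reads in all 6 libraries, so GPX4, GPX1 and GPX8 held nearly all reads of the glutathione peroxidases counted here. CHAC1, an enzyme that degrades glutathione and was also named after its values were seen, was too sparse to be tested, with 12, 12 and 17 reads with miR-148a-3p and 4, 9 and 3 with the control.

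GPX4 needs selenocysteine, which is built on its own transfer RNA and inserted at a UGA codon. Of 10 tested genes listed for this machinery, which include factors with other roles in the cell, 6 were higher and 4 lower (median 0.05, 0 past the threshold). SARS1, the seryl-tRNA synthetase that charges this transfer RNA with serine, was at 214, 231 and 235 CPM with miR-148a-3p and at 167, 161 and 195 CPM with the control (0.38, SE 0.19, edgeR adjusted p = 0.726). SECISBP2L was at -0.34 (SE 0.23), RPL30 at -0.18 (SE 0.15) and EEFSEC, the elongation factor for selenocysteine, at -0.49 (SE 0.51) on the log2 fold change scale. The value of SECISBP2L was -0.16 without control replicate 1 and -0.18 without miR-148a-3p replicate 3. That of EEFSEC, counted in 6 to 26 reads, was -0.16 without control replicate 1, -0.12 without miR-148a-3p replicate 1 and -1.12 without miR-148a-3p replicate 2. Of the other selenoproteins 9 of 14 were higher and 5 lower (median 0.06), with 0 past the threshold. SELENOW was at 271, 312 and 291 CPM with miR-148a-3p and at 249.5, 240.3 and 224 CPM with the control, and the mitochondrial thioredoxin reductase TXNRD2 was at 13.8, 16.6 and 18.1 CPM with miR-148a-3p and at 7.71, 11.7 and 5.69 CPM with the control. Neither gene overlapped between the groups, with log2 fold changes of 0.29 (SE 0.18) and 0.93 (SE 0.53). TXNRD2 was counted in only 21, 14 and 11 reads with miR-148a-3p and 8, 10 and 5 with the control. SELENOM (-0.59, SE 0.31) and SELENOI (-0.37, SE 0.24) had lower fitted values.

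**Figure D4:**
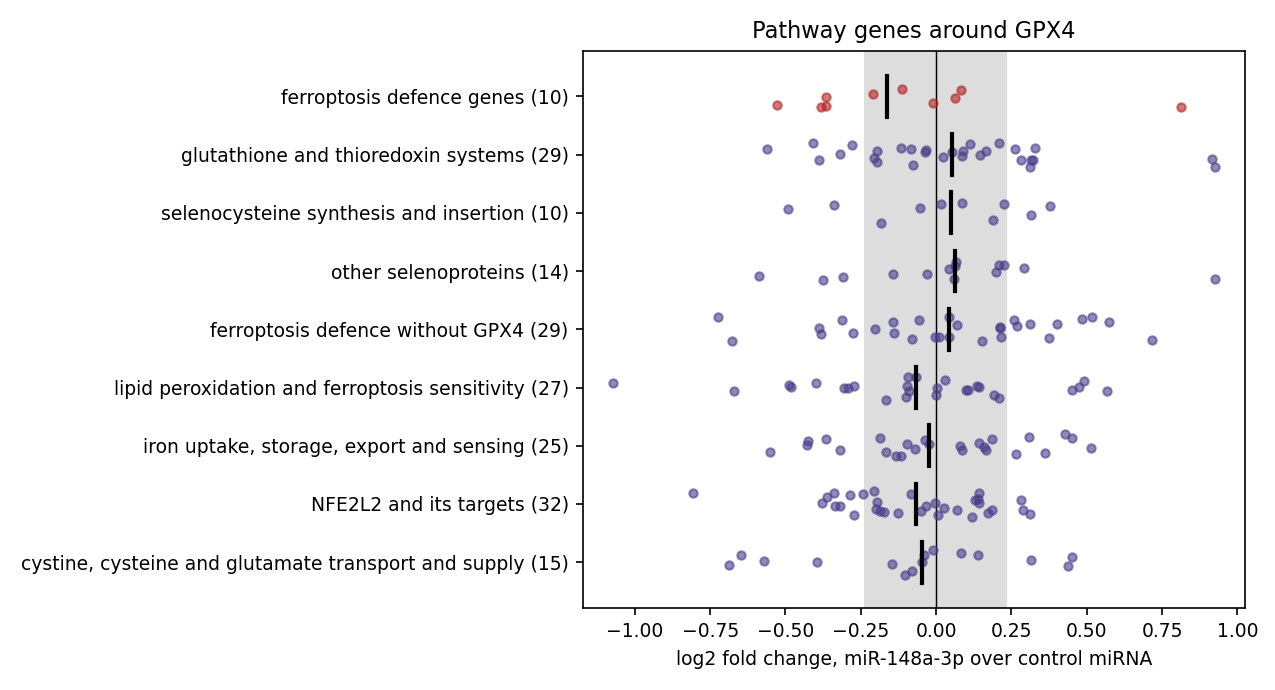
Log2 fold change (miR-148a-3p over control miRNA) of the tested genes of each pathway list, the number tested in brackets; each point is a gene, black bars are medians, vertical scatter has no meaning and the grey band is the interquartile range of all genes tested. The medians of the 8 lists lie between -0.07 and 0.06, and GPX4 is the rightmost point of its row at 0.81.

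Defences that act without GPX4 include FSP1 (gene AIFM2) with coenzyme Q, tetrahydrobiopterin, and lipids with fewer double bonds. In this list 17 of 29 tested genes were higher and 12 lower (median 0.04), and 0 passed. ACSL3, which activates monounsaturated fatty acids, was at 349, 324 and 291 CPM with miR-148a-3p and at 473, 433 and 355 CPM with the control, lower without overlap (-0.38, SE 0.18, edgeR adjusted p = 0.725). COQ9 (0.72, SE 0.46) and COQ3 (-0.72, SE 0.48), both needed for coenzyme Q synthesis, had fitted values of opposite sign, but without control replicate 1 these were 0.42 for COQ9 and -0.079 for COQ3. ITPR3, a calcium channel of the endoplasmic reticulum, was at 0.52 (SE 0.33). AIFM2, named for its role after its values were seen, was at 29.7, 40.2 and 42.8 CPM with miR-148a-3p and at 30.8, 42.0 and 22.8 CPM with the control.

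Among genes that make lipids prone to peroxidation or cells sensitive to ferroptosis, 13 of 27 were higher and 14 lower (median -0.07, 0 past the threshold). LPCAT3 was counted in only 15, 10 and 7 reads with miR-148a-3p and 14, 26 and 23 with the control. LPCAT3, which places polyunsaturated fatty acids into phospholipids, was at 9.89, 11.8 and 11.5 CPM with miR-148a-3p and at 13.5, 30.3 and 26.2 CPM with the control, lower without overlap (-1.07, SE 0.47, edgeR adjusted p = 0.706). ACSL4, which activates those fatty acids, was at 83.7, 84.0 and 93.8 CPM with miR-148a-3p and at 173, 111 and 79.6 CPM with the control, where the difference rested largely on control replicate 1 (-0.49, SE 0.25, and -0.14 without that library). VDAC3, a channel of the outer mitochondrial membrane, was at 0.49 (SE 0.21) without overlap, and the electron donor POR at 0.47 (SE 0.24). With 1 library left out, VDAC3 lay between 0.33 and 0.66 and POR between 0.27 and 0.64. Of the lipoxygenases, ALOX12 and ALOX15B had 0 reads in all libraries, and ALOX5, ALOX12B, ALOX15 and ALOXE3 had at most 9 in any library; these were named after their values were seen.

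Of the other iron genes 12 of 25 were higher and 13 lower (median -0.02, 0 past the threshold). ACO1, the iron regulatory protein 1, was at 50.8, 73.4 and 44.5 CPM with miR-148a-3p and at 96.3, 64.2 and 86.5 CPM with the control, with overlap (-0.55, SE 0.26, edgeR adjusted p = 0.725). Its log2 fold change lay between -0.78 and -0.42 with 1 library left out. CDC42BPA, a kinase whose messenger RNA can carry an iron responsive element, was at 254, 227 and 234 CPM with miR-148a-3p and at 341, 308 and 313 CPM with the control, without overlap (-0.42, SE 0.18, edgeR adjusted p = 0.681). EXOC1, a subunit of the exocyst, was at 0.36 (SE 0.34), or 0.23 with miR-148a-3p replicate 3 left out and 0.14 with control replicate 3 left out. The iron exporter SLC40A1, named after its values were seen, had 0 reads in all libraries.

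NFE2L2 and its targets, the list that bears on the core matches shown above, had 13 of 32 tested genes higher and 19 lower (median -0.07, 0 past the threshold). This list also holds regulators of NFE2L2, so these are not counts of targets alone. NFE2L2 itself was at 223, 189 and 145 CPM with miR-148a-3p and at 236, 237 and 241 CPM with the control, lower without overlap (-0.34, SE 0.19, edgeR adjusted p = 0.746). The NFE2L2 value was -0.20 with miR-148a-3p replicate 3 left out. AKR1B1 (-0.81, SE 0.44) and GSR, glutathione reductase (-0.32, SE 0.20), had lower fitted values, at -0.51 and -0.19 without control replicate 1. PRDX1 was at 2037, 1984 and 2242 CPM with miR-148a-3p and at 1016, 2056 and 2084 CPM with the control, so its fitted value of 0.28 (SE 0.20) came with 1 low library, control replicate 1, and was 0.0096 without it. Members with a match to the core letters in a window were at -0.21 (SLC3A2), 0.06 (GCLM) and -0.37 (TXNRD1) on the log2 fold change scale, with no common direction. Whether these matches are working elements was not tested.

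In the supply of cystine, cysteine and glutamate, 5 of 15 tested genes were higher and 10 lower (median -0.05, 0 past the threshold). SLC1A5, a glutamine transporter, was at 65.3, 46.1 and 51.0 CPM with miR-148a-3p and at 67.4, 93.3 and 105.8 CPM with the control, lower without overlap (-0.69, SE 0.26, edgeR adjusted p = 0.593). The neutral amino acid transporter SLC38A2 was at 285, 220.1 and 159.7 CPM with miR-148a-3p and at 484, 246 and 323 CPM with the control, with overlap (-0.65, SE 0.22, edgeR adjusted p = 0.527, and -0.34 without control replicate 1). SLC38A1 was at -0.39 (SE 0.21), and at -0.18 without control replicate 1. CARS1, the cysteinyl-tRNA synthetase, was at 0.44 (SE 0.20), and between 0.30 and 0.59 with 1 library left out.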

How the data were processed

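The deposited values of the 6 mRNA libraries are whole-number read counts, listed by gene symbol and not normalised by the authors, and a symbol absent from a library was taken as 0. The submitters' processing notes name STAR, Bowtie2, cutadapt and, as genome build, GRCh38. In the sources used here, the counter, the annotation and the strand setting are not given. The test was edgeR's quasi-likelihood F test (version 4.0.16, R 4.3.3) with TMM scaling, the filterByExpr filter and the group as the one term, adjusted by Benjamini-Hochberg over 8921 genes. The SE is the log2 fold change divided by the root of F. Replicates of a group differed by 2.52 to 5.30 times Poisson variance, so no library was counted as a repeat of another. The scripts were tested on simulated data. The members, lists and tests were chosen with earlier results of these data known. Named genes are the members, up to 4 genes per list with the smallest p, and the 5 genes most like GPX4, with pseudogenes and overlapping genes of the members. DROSHA and cell type markers were named to describe the cells. GPX2, GPX3, GPX8, CHAC1, AIFM2, SLC40A1 and the lipoxygenases were named after their values were seen; 1 gene of the iron list is not reported here. Alternatives were other scalings and filters, DESeq2 1.42.0, limma-voom (limma 3.58.1), a replicate block, pseudogene reads added, and each library left out. With 3 libraries against 3, an exact permutation test cannot go below a two-sided p of 0.1 and was not used. The small RNA library was not used here.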

Additional observations from a re-analysis of the deposited data

How the results depend on the processing

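The 8 pathway lists kept 0 genes past the threshold under every alternative run. GPX4 was higher under each, with a log2 fold change of 0.66 to 0.95 with 1 library left out and 0.79 to 0.82 under the others. As GPX4 was chosen for this difference in the same libraries, its direction under the alternatives tests nothing. The count of members past the threshold was 0 except with no count filter (1, GPX4) and with 1 library left out (0 to 1, GPX4 without control replicate 1). Over all genes the count was 1 of 8921 with all libraries, 18 of 15659 with no count filter (7 higher, 11 lower), 2 with DESeq2 and 3 with limma-voom. It was 1 to 26 with 1 library left out (26 of 9309 without control replicate 1, 2 without miR-148a-3p replicate 3). With a replicate block it was 3, and 0 members passed. At an unadjusted edgeR p below 0.05 there were 768 genes with the block and 606 without it. The labels do not say that replicate numbers pair the libraries, so the main fit had no block. Same-numbered libraries correlated at 0.13, 0.09 and -0.0018 in their deviations from the group means. Differently numbered ones correlated at -0.13 to 0.03. Whether the numbers pair the libraries was not tested. The fitted values of GPX1, SLC7A11 and GCLM were close to 0 and changed sign under some alternatives. GPX1, GCLC, GCLM, TFRC and SLC3A2 had under 100 reads in at least 1 library, which limits their precision beside the spread between replicates.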
